A study of Mus musculus with 12 samples.

Results

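The acyl-CoA thioesterase (Acot) genes of the mouse liver were followed across 12 microarrays. The family was taken as 9 genes, Acot1, Acot2, Acot3, Acot4, Acot7, Acot8, Acot9, Acot12 and Acot13, and held every probe set to which the array's annotation gave 1 of these symbols alone. That gave 13 probe sets of 45101, and all 9 genes passed the filter on low signal and were among the 14568 genes tested. The family was chosen on the measured response to tunicamycin, because Acot3 was the gene with the largest fall, so the tunicamycin values of its members are given as a description. Only the number of members past the threshold is printed for them, once, beside the share of all genes. The choice did not compare the genotypes, and differences between them were tested. It used the same arrays, however, so the genotype differences of Acot3 are a description.

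The study profiled livers of mice with a conditional loss of Ire1α, the kinase and RNase of the endoplasmic reticulum (ER) membrane that is encoded by Ern1, and of control mice, with and without ER stress. All mice were C57Bl/6J and 3 months old. By title the groups are Fe+CRE+ for control livers given vehicle, Fe+CRE+Tm for control livers given tunicamycin, Fe-CRE+ for Ire1α null livers given vehicle and Fe-CRE+Tm for Ire1α null livers given tunicamycin, so all 4 groups are labelled CRE+. Tunicamycin, an inhibitor of N-linked glycosylation, was given by intraperitoneal injection at 2 µg per g of body weight, the other mice received a dextrose vehicle, and livers were collected after 8 hours. Each group held 3 arrays that the labels call biological replicates. Neither the promoter driving Cre nor the deleted part of Ern1 is given in the sources used here.

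Acyl-CoA thioesterases split acyl-CoA into a free fatty acid and coenzyme A, and so act against the acyl-CoA synthetases, which activate fatty acids. Acot1 to Acot4 are closely related enzymes encoded by neighbouring genes and differ in the compartment they work in or in their substrate. Acot7, Acot8, Acot9, Acot12 and Acot13 carry the unrelated hotdog fold. In liver several of these genes are known targets of PPARα, the nuclear receptor that turns on fatty acid oxidation in fasting.

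Acot1 to Acot4 lie side by side on chromosome 12, in the order Acot2, Acot1, Acot4 and Acot3 in the RefSeq annotation, with a long non-coding RNA between Acot1 and Acot4. They are followed by Acot5 and Acot6. The other members lie elsewhere, Acot7 on chromosome 4, Acot8 on chromosome 2, Acot9 on the X chromosome and Acot12 and Acot13 on chromosome 13. The promoter windows of Acot2 and Acot3 are shown because these genes of the cluster had the largest tunicamycin changes, in opposite directions. Each window runs from 250 bases before to 50 bases after the start of the transcript (RefSeq, GRCm38.p6), at chr12:83987611-83987910 for Acot2 and chr12:84051894-84052193 for Acot3, both on the plus strand. Capitals mark a CCAAT box (CCAAT or ATTGG) or a single nuclear receptor binding motif (AGGTCA or TGACCT).
Acot2: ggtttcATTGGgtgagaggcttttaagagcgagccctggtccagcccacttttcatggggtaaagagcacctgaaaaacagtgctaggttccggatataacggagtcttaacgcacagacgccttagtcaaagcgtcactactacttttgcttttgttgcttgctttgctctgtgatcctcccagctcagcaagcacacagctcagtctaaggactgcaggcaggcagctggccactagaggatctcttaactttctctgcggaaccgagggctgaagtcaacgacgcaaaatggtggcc
Acot3: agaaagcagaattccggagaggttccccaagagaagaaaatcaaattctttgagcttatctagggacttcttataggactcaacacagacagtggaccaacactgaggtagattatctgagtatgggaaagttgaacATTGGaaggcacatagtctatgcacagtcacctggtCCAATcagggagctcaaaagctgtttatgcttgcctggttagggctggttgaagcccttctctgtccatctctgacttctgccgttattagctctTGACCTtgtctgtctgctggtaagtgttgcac
The Acot2 window holds 1 CCAAT box, with its first base at position -244 from the start, and the Acot3 window holds 2, at -113 and -77, and 1 nuclear receptor motif at 19. Another Acot3 window, chr12:84051901-84052200, has a different start, from which these motifs lie at -120, -84 and 12.

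Promoter windows were found for 8 of the 9 members, all but Acot13, and 8 motifs were searched on both strands. The CCAAT box stood in 6 of the 8 (Acot1, Acot2, Acot3, Acot4, Acot8 and Acot9) and in 37.4% of all 32851 windows. The nuclear receptor motif AGGTCA stood in 3 (Acot3, Acot4 and Acot12) and in 16.3% of all windows. The TATA box, TATAAA, was in the windows of Acot4 and Acot9 and in 13.6% of all, and the E-box, CACGTG, was in that of Acot4 and in 7.15%. No window of a member held the other 4 motifs. These were the PPAR element AGGTCANAGGTCA, which contains the shorter nuclear receptor motif and was in 0.0396% of all windows, the ER stress element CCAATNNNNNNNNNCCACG, which contains the CCAAT box and was in 0.119%, the unfolded protein response element core TGACGTGG, in 0.676%, and the composite core TGATGNAA, in 3.97%. A match is a description of the letters and not a shown binding site.

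Changes are given as log2 differences ± the standard error (SE) of a limma fit over all 12 arrays, and a gene is called where its Benjamini-Hochberg adjusted p over all genes is under 0.05. Levels are deposited intensities, a brightness on a linear scale, which cannot be compared between probe sets. For 1 probe set they can be compared between arrays only roughly, because it is not known whether they were adjusted for the brightness of the array. With 3 arrays in a group, their number limits how precise each value can be. The mean deposited intensity, with the extremes trimmed, was 228 to 261 on the vehicle arrays and 240 to 303 on the tunicamycin arrays. The value of 240 belongs to null tunicamycin replicate 2, and the other tunicamycin arrays were at 277 or more. Deposited levels carry this difference between the treatments, whereas the changes come from normalized values. In its brightest probe set Ern1 read 1119 to 1846 in control and 1083 to 1489 in null livers with vehicle, so its level does not check the genotype labels (null minus control -0.13 ± 0.24, limma adjusted p = 0.995). Summed deposited intensities of 11 hepatocyte markers were 118300 to 127700 over the vehicle groups and 129900 to 137000 over the tunicamycin groups. After normalization their median change with tunicamycin was 0.01 in control and 0.04 in null livers, with none called. Those of 8 macrophage, 7 endothelial and 7 stellate cell markers overlapped between vehicle and tunicamycin in both genotypes. Of the macrophage markers 1 (Adgre1) fell with tunicamycin in control livers and 2 (Adgre1 and Timd4) fell in null livers, with a median change of -0.57 in both, and between the genotypes with tunicamycin the median was -0.65 with none called. The part of these markers in the members' values was not tested. The array labelled null tunicamycin replicate 2 stood apart: 9 of 11 measured kidney markers were more than 1 log2 unit above the highest of the other 11 arrays, and the kidney sum there was 27780, against 320.4 to 584 over the groups other than null tunicamycin. The summed signal of 4 bile duct markers reached 1031 in the null tunicamycin group and 186.9 at most in the others. Values of the members that rest on this array are given with and without it. In whole liver, fewer cells of a type and less RNA per cell cannot be told apart.

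With tunicamycin, Acot3 was the member with the lowest level relative to vehicle and Acot2 the member with the highest, in both genotypes. In control livers 1 member was past the threshold above 0 and 4 below it, beside 11.6% of all genes called higher and 13.3% called lower. In null livers the counts were 1 and 3, beside 7.59% called higher and 9.23% called lower. The rule used these comparisons, so nothing is read from the counts, which support no statement on a member. The median change of the 9 members was -0.20 in control and -0.10 in null livers, and that of all genes was -0.11 and -0.07.

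**Figure D1:**
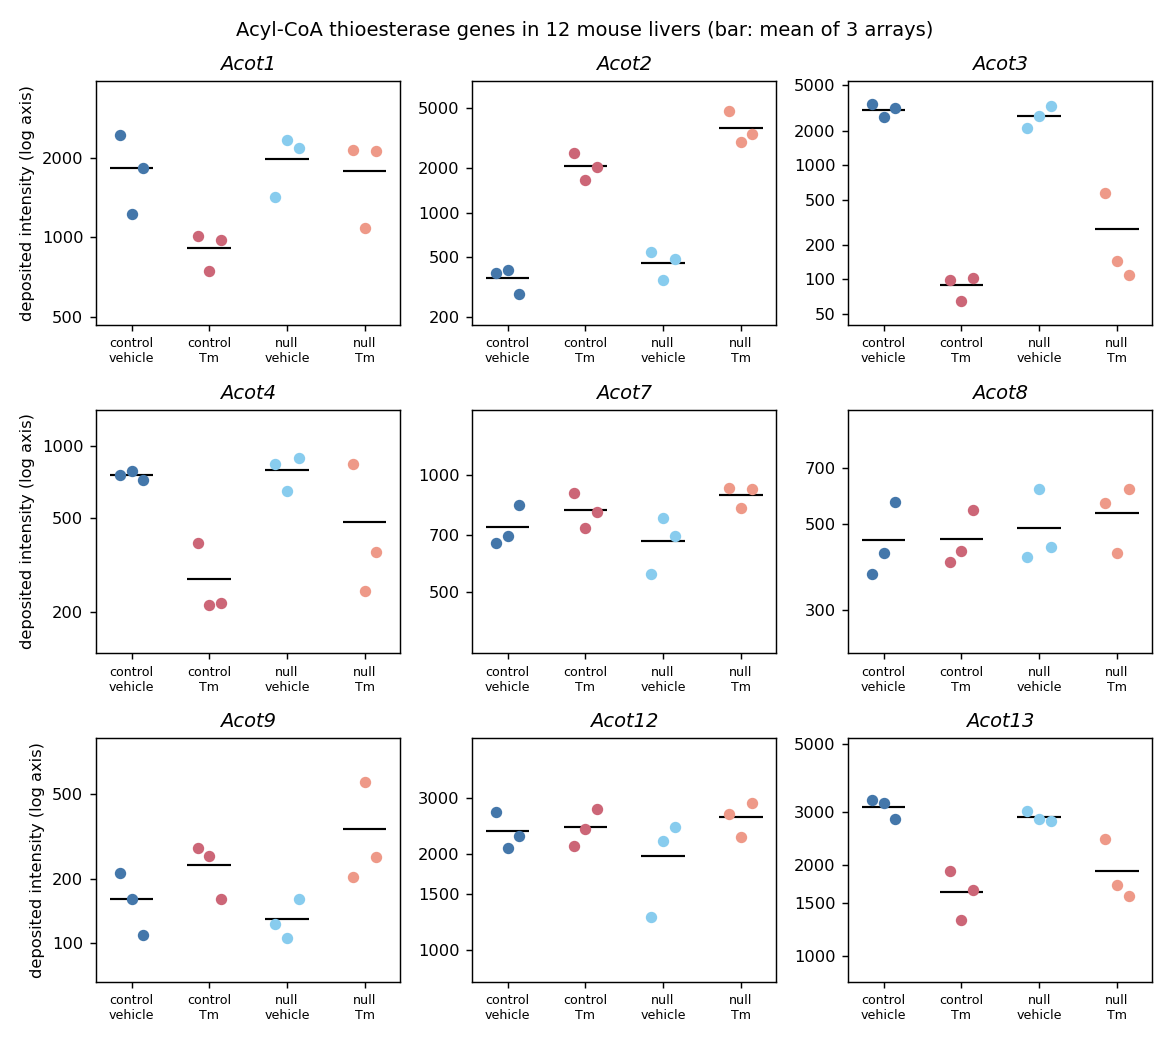
Deposited intensity of each member on each of the 12 arrays, on log axes that differ between panels; points are single arrays of the 4 groups (Tm, tunicamycin) and black bars are the means of 3. Acot3 read 2117 or more on every vehicle array and 575 or less on every tunicamycin array, while Acot2 read 543 or less with vehicle and 1663 or more with tunicamycin.

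Acot3 encodes a peroxisomal enzyme that splits long-chain acyl-CoA. Its single probe set, 1422925_s_at, read 3401, 2627 and 3165 in control livers with vehicle and 98.3, 64.1 and 104 in control livers with tunicamycin. In null livers it read 2117, 2693 and 3310 with vehicle and 575, 146 and 109 with tunicamycin. Every tunicamycin array thus lay below every vehicle array, and within the null tunicamycin group replicate 1 stood above the other 2. The group means fell in the order control vehicle (3065 ± 397, SD, n = 3), null vehicle (2707 ± 597, SD, n = 3), null tunicamycin (277 ± 259, SD, n = 3) and control tunicamycin (88.8 ± 21.5, SD, n = 3). The vehicle groups overlapped, and the tunicamycin groups overlapped once the arrays had been normalized.

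The tunicamycin change of Acot3 was -4.99 ± 0.43 in control livers, a 31.8-fold lower level, and -3.80 ± 0.43 in null livers, 14.0-fold lower. In control livers the next genes were Keg1 at -3.99 ± 0.91 and Nxpe2 at -3.85 ± 0.25. In null livers Acot3 came after Cyp2c39 at -4.20 ± 1.54, Nxpe2 at -4.14 ± 0.25 and Lipg at -3.83 ± 0.22. Without null tunicamycin replicate 1 the change in null livers was -4.44, without replicate 2, the array with kidney transcripts, it was -3.65, and without replicate 3 it was -3.32. The suffix of its probe set marks probes that can match related transcripts, so signal from other genes of the cluster cannot be told apart.

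Acot4, the peroxisomal neighbour of Acot3, splits succinyl-CoA and the CoA esters of dicarboxylic acids. Its brighter probe set, 1422077_at, read 761, 787 and 723 in control livers with vehicle and 391, 214 and 217 with tunicamycin, so the groups did not overlap. In null livers it read 840, 647 and 896 with vehicle and 840, 244 and 359 with tunicamycin. Replicate 1 with tunicamycin lay within the vehicle range, and the other 2 lay below it. The change was -1.64 ± 0.32 in control and -1.14 ± 0.32 in null livers. In null livers it was -0.89 without the kidney-bearing replicate 2, -1.58 without tunicamycin replicate 1, and between -1.58 and -0.88 over all alternatives. The means of the vehicle groups (757 ± 32.1 in control and 795 ± 130 in null, SD, n = 3) overlapped in their arrays, as did those of null tunicamycin (481 ± 316, SD, n = 3) and control tunicamycin (274 ± 102, SD, n = 3). The dimmer probe set, 1422076_at, differed by -1.53 ± 0.29 in control and -0.75 ± 0.29 in null livers in the fit of single probe sets.

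Acot1 encodes the cytosolic enzyme for long-chain acyl-CoA. Its probe set, 1449065_at, read 2453, 1232 and 1832 in control livers with vehicle and 1015, 746 and 976 with tunicamycin. In null livers the values were 1429, 2342 and 2180 with vehicle and 2150, 1088 and 2124 with tunicamycin. The control groups were separate, whereas in null livers the range with tunicamycin overlapped that with vehicle. The change was -1.19 ± 0.26 in control livers and -0.40 ± 0.26 in null livers, and the latter was -0.19 without the kidney-bearing array. The order of the means was null vehicle (1983 ± 487), control vehicle (1839 ± 611), null tunicamycin (1788 ± 606) and control tunicamycin (912 ± 145; SD, n = 3 each), and the arrays of the first 3 groups overlapped.

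Acot2 encodes the mitochondrial enzyme for long-chain acyl-CoA. Its brighter probe set, 1439478_at, read 391, 411 and 283 in control livers with vehicle and 2524, 1663 and 2014 with tunicamycin. In null livers it read 543, 353 and 489 with vehicle and 4768, 2973 and 3384 with tunicamycin. The null tunicamycin arrays were all above the control tunicamycin arrays, which were all above both vehicle groups, and the vehicle groups overlapped. The means were 362 ± 69.2 and 2067 ± 433 in control and 462 ± 97.9 and 3708 ± 940 in null livers (SD, n = 3 each). The change was 2.21 ± 0.23 in control livers, 4.64-fold, and 2.77 ± 0.23 in null livers, 6.84-fold.

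The second probe set of Acot2, 1422996_at, was dim and had smaller changes. It read 107, 33.8 and 46.9 in control livers with vehicle and 62.8, 74.0 and 54.8 with tunicamycin, and 33.6, 70.0 and 52.4 with vehicle and 125, 66.9 and 105 with tunicamycin in null livers. As deposited, the groups overlapped within each genotype, and once normalized they were separate in null livers only. The changes of this probe set were 0.10 ± 0.29 in control and 0.61 ± 0.29 in null livers. The statements on Acot2 rest on the brighter probe set. Acot1 and Acot2 are near-identical copies, and cross-hybridisation between them was not tested.

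**Figure D2:**
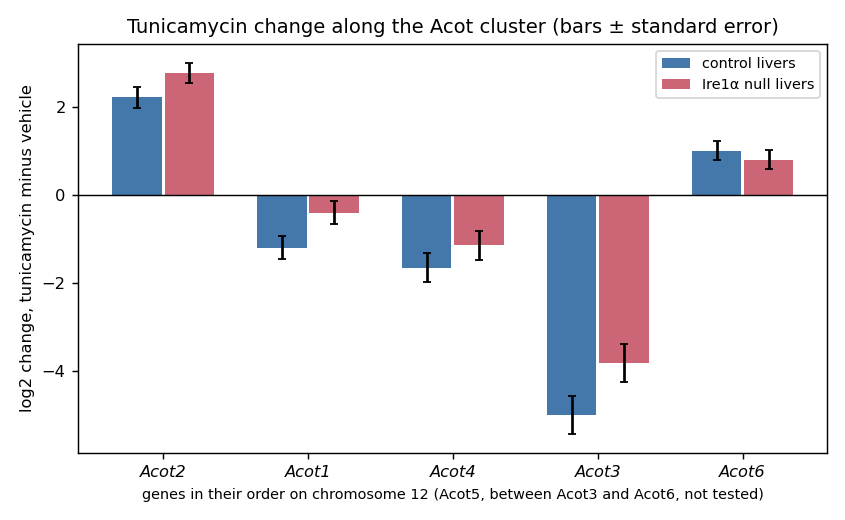
Log2 change with tunicamycin (bars, ± SE from the limma fit, n = 3 arrays a group) of the tested genes of the chromosome 12 cluster in their genomic order, in control and null livers. Acot2 and Acot6 at the ends are above 0 and Acot1, Acot4 and Acot3 between them are below 0. In null livers the vehicle and tunicamycin groups of Acot1 and Acot4 overlapped.

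Along the cluster, the changes of the tested genes at the ends were above 0 and those of the genes between them were below 0 in both genotypes. In null livers the vehicle and tunicamycin groups of Acot1 (-0.40 ± 0.26) and of Acot4 overlapped. The value of Acot2 is that of its brighter probe set. Acot6, a related gene that is no member here, rose by 1.01 ± 0.21 in control livers (limma adjusted p = 0.00422) and by 0.81 ± 0.21 in null livers (limma adjusted p = 0.0221). Acot6 was not called when its probe sets were averaged or with the actin 5' to 3' ratio in the fit, in both genotypes. In null livers it was also not called without vehicle replicate 2 or tunicamycin replicate 1 or 3, or with only the 2 groups compared. Acot1, Acot4 and Acot3 lie between Acot2 and Acot6, and Acot3 had the lowest value of the cluster in both genotypes. Acot5, next to Acot3, was left out by the filter on low signal, with a mean intensity of 6.18.

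Acot13, a mitochondrial hotdog enzyme that binds the phosphatidylcholine transfer protein Pctp, lay lower with tunicamycin in both genotypes. It read 3278, 3210 and 2835 in control livers with vehicle and 1918, 1321 and 1657 with tunicamycin. In null livers it read 3022, 2845 and 2793 with vehicle and 2436, 1722 and 1576 with tunicamycin. Both tunicamycin groups lay below both vehicle groups and overlapped each other, as the vehicle groups did. The change was -1.15 ± 0.18 in control livers and -0.84 ± 0.18 in null livers, and the means were 3108 ± 239, 1632 ± 300, 2887 ± 120 and 1911 ± 460 (SD, n = 3 each) in control vehicle, control tunicamycin, null vehicle and null tunicamycin.

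Acot12, a cytosolic enzyme that splits acetyl-CoA, was bright in all groups. Its brightest probe set, 1449457_at, read 2716, 2087 and 2280 in control livers with vehicle and 2126, 2399 and 2773 with tunicamycin, and 1274, 2199 and 2430 with vehicle and 2667, 2270 and 2894 with tunicamycin in null livers. All 4 groups overlapped, and null replicate 1 with vehicle was the lowest of the 12 arrays. The changes were -0.18 ± 0.21 in control and 0.22 ± 0.21 in null livers, and those of the second bright probe set, 1419395_at, were -0.14 ± 0.16 and -0.10 ± 0.16. Another probe set, 1433064_at, was dim, with group means of 8.27 to 11.8.

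Acot7, a cytosolic enzyme best known from brain, had group means of 735 ± 89.9 and 812 ± 83.9 in control livers and 676 ± 113 and 890 ± 57.9 in null livers (vehicle and tunicamycin, SD, n = 3 each). Acot8, a peroxisomal enzyme of broad substrate range that also acts on bile acid CoA esters, had means of 455 ± 103, 458 ± 76.4, 490 ± 112 and 536 ± 103 in the same order. Neither gene showed separate groups between vehicle and tunicamycin after normalization. Their changes were -0.08 ± 0.16 and 0.17 ± 0.16 for Acot7 and -0.20 ± 0.22 and -0.10 ± 0.22 for Acot8 in control and null livers. These small changes moved with the scaling of the arrays. With the values as deposited they were 0.14 and 0.40 for Acot7, 0.02 and 0.13 for Acot8 and 0.04 and 0.45 for Acot12, so the sign turned in control livers for all 3 genes and in null livers for Acot8.

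Acot9, a mitochondrial enzyme of short- and long-chain acyl-CoA, was highest on the array with kidney transcripts. It read 214, 162 and 110 in control livers with vehicle, 282, 257 and 161 with tunicamycin, 123, 106 and 162 in null livers with vehicle and 205, 574 and 255 with tunicamycin. The value of 574 belongs to null tunicamycin replicate 2. The change was 0.34 ± 0.39 in control and 1.01 ± 0.39 in null livers, and the latter was 0.45 without that array, 1.34 without replicate 1 and 1.19 with the values as deposited.

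**Figure D3:**
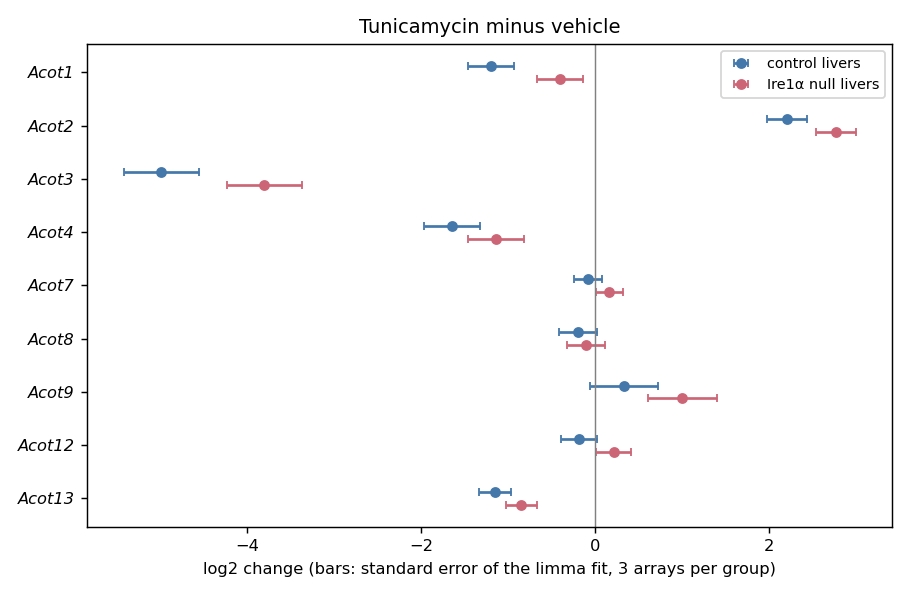
Log2 change with tunicamycin of the 9 members in control and null livers (points, with bars for the SE of the limma fit, 3 arrays per group). Acot3 lies at -4.99 and -3.80, Acot2 at 2.21 and 2.77, and Acot7, Acot8 and Acot12 between -0.20 and 0.22.

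The scaling of the arrays moved the reference for these changes. The median change of all genes in control livers was -0.11 with quantile normalization and 0.01 with the values as deposited, and in null livers it was -0.07 and 0.08. The called genes of control livers divided into 1693 higher and 1943 lower, against 2100 and 1181 with centred medians and 2062 and 1068 as deposited. In null livers the numbers were 1105 and 1344, against 1256 and 703, and 1477 and 512. Acot1, Acot2, Acot3, Acot4 and Acot13 kept the sign of their changes under both scalings in both genotypes, but sizes moved: in null livers the change of Acot4 was -0.95 with centred medians and -0.88 as deposited, and that of Acot1 was -0.26 and -0.18. The actin 5' to 3' signal ratio, a measure of RNA integrity, was 0.454 to 1.10 in control livers with vehicle and 0.295 to 0.389 with tunicamycin, and 0.296 to 0.633 and 0.205 to 0.434 in null livers. With this ratio in the fit the change of Acot4 was -1.49 ± 0.45 in control and -1.05 ± 0.38 in null livers, and with the Gapdh 5' to 3' ratio it was -1.60 ± 0.32 and -1.05 ± 0.32. Over all alternatives the change of Acot3 in control livers ran from -5.22 to -4.44.

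Without tunicamycin, the comparison of null with control livers asks whether the loss of Ire1α shifts the family at rest. No member was called, as no gene of the array was (0% higher and 0% lower), and no member had an unadjusted p under 0.05. The differences, null minus control, ran from -0.25 (Acot9) to 0.36 (Acot2), with a median of -0.04 beside -0.002 for all genes, and limma adjusted p values of 0.988 to 0.998. The 95% confidence intervals ran from -0.14 to 0.87 for Acot2, from -0.39 to 0.76 for Acot1 and from -1.06 to 0.82 for Acot3, so the interval of Acot3 still includes a difference of -1 log2 unit.

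With tunicamycin, Acot2 was higher in null than in control livers. The difference was 0.92 ± 0.23, a 1.90-fold higher level, with a confidence interval of 0.42 to 1.43 and a limma adjusted p of 0.0476, and all 3 null arrays lay above all 3 control arrays. It was the only member called, beside 0.755% of all genes called higher and 3.23% called lower. The call was narrow. It was lost in 17 of 26 alternatives, over which the difference stayed between 0.66 and 1.07 and the adjusted p between 0.00744 and 0.222. It held when null vehicle replicate 1 or 2 was left out and was lost when any of the other 10 arrays was, for example null tunicamycin replicate 2 (0.99, limma adjusted p = 0.0625), null tunicamycin replicate 1 (0.75, limma adjusted p = 0.173) or control tunicamycin replicate 2 (0.79, limma adjusted p = 0.222). Its dimmer probe set differed by 0.40 ± 0.29 and was not called.

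Acot1 had the next smallest p in this comparison. Its difference of 0.98 ± 0.26 (confidence interval 0.41 to 1.55, limma adjusted p = 0.0637) was not called, although the 3 null arrays, at 1088 to 2150, lay above the 3 control arrays, at 746 to 1015. It was called in 6 of 26 alternatives, among them the fits without the kidney-bearing array (1.19, limma adjusted p = 0.0302) and without control vehicle replicate 1 (limma adjusted p = 0.0483) or 2 (limma adjusted p = 0.0392). The adjusted p over all alternatives ran from 0.00438 to 0.258. Acot3 differed by 1.06 ± 0.43 (interval 0.12 to 2.00, limma adjusted p = 0.251) and Acot4 by 0.62 ± 0.32 (interval -0.09 to 1.32, limma adjusted p = 0.4). These values rest on null tunicamycin replicate 1, without which they were 0.43 for Acot3 and 0.18 for Acot4. The choice of the family used the control arrays with tunicamycin, on which Acot3 was low, so its difference here is a description.

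The other 5 members differed by 0.16 (Acot12) to 0.42 (Acot9) between the genotypes with tunicamycin, with limma adjusted p values of 0.542 to 0.796. For Acot9 the difference was -0.14 without the kidney-bearing array. Over the 9 members the median difference was 0.42 beside 0.02 for all genes. That median was 0.27 without the kidney-bearing array and 0.24 without null tunicamycin replicate 1. Null tunicamycin replicate 1 was the highest array of its group for 5 members, Acot1, Acot2, Acot3, Acot4 and Acot13. The Gapdh 5' to 3' ratio was 0.523 to 0.577 in the control and 0.370 to 0.435 in the null tunicamycin arrays. With that ratio in the fit Acot2 was not called (0.75, adjusted p = 0.089) and Acot1 was (1.18, adjusted p = 0.0193).

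**Figure D4:**
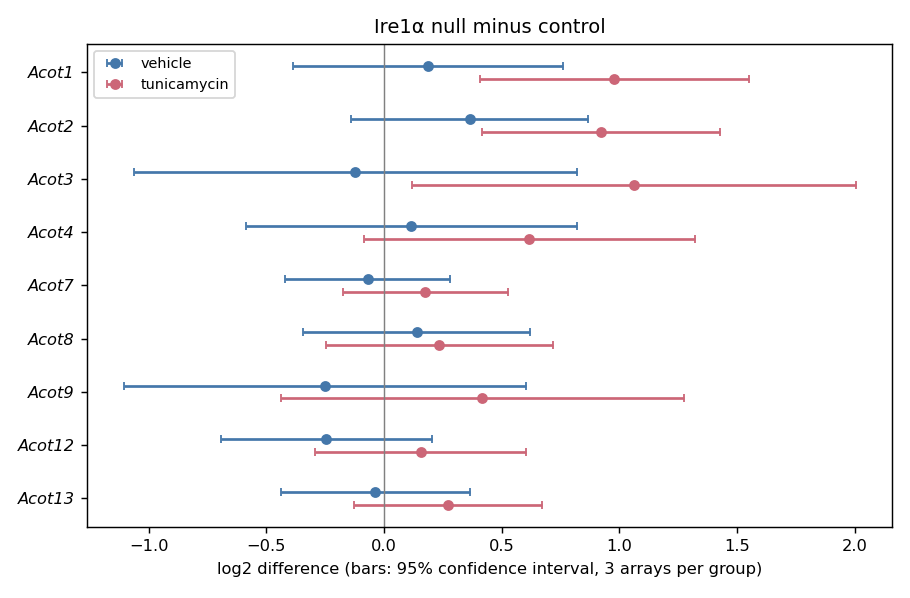
Log2 difference, null minus control, of the 9 members with vehicle and with tunicamycin (points, with bars for the 95% confidence interval of the limma fit, 3 arrays per group). With tunicamycin the intervals of Acot1, Acot2 and Acot3 lie above 0, and after adjustment over all genes Acot2 alone was called. The family was chosen for the fall of Acot3 on arrays of this comparison, so its values are a description.

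With both treatments averaged, 6 null arrays against 6 control arrays, no member was called, beside 0.22% of all genes called higher and 1.47% lower. The smallest p values were those of Acot2 at 0.64 ± 0.16 (limma adjusted p = 0.0796) and Acot1 at 0.58 ± 0.19 (limma adjusted p = 0.17). The others had limma adjusted p values of 0.504 to 0.925. Whether the response to tunicamycin itself differed between the genotypes was asked with the interaction. No member was called, beside 0.0137% of all genes called higher and 0.824% lower, and 0 members had an unadjusted p under 0.05. The estimates, the null response minus the control response, were all above 0, from 0.10 (Acot8) to 1.19 ± 0.61 (Acot3, a description), with a median of 0.50 beside 0.03 for all genes. Without null tunicamycin replicate 1 the interaction was 0.55 for Acot3 and 0.06 for Acot4 (0.50 with it), and the median was 0.39. Without the kidney-bearing array it was 0.11 for Acot9 (0.67 with it), and the median was 0.41. All members were read from the same 12 arrays, and these values are not independent of each other. Acot1 had an interaction of 0.79 ± 0.37 (limma adjusted p = 0.616), so its response was not shown to differ between the genotypes.

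The other genes of acyl-CoA metabolism were counted in 6 lists, whose counts stand beside 11.6% of all genes called higher and 13.3% lower with tunicamycin in control livers and 7.59% and 9.23% in null livers, with medians of all genes of -0.11 and -0.07. Of 12 other thioesterase genes measured, 1 rose and 2 fell in control livers and 1 rose and 3 fell in null livers, with medians of -0.33 and -0.32. In control livers these counts are near the share of all genes. The palmitoyl thioesterase gene Mblac2 fell by 1.59 ± 0.27 and 1.51 ± 0.27 on the log2 scale (limma adjusted p = 0.000971 and 0.00249). Acot11, another thioesterase, fell in null livers by 1.48 ± 0.38 (limma adjusted p = 0.0195). That call was lost without vehicle replicate 1 or tunicamycin replicate 1 or 3. It was also lost with the actin 5' to 3' ratio in the fit and with only the 2 groups compared. Fasn, the fatty acid synthase, which releases its product through a thioesterase domain, was lower in null than in control livers with tunicamycin (-0.73 ± 0.17, limma adjusted p = 0.0391), a call lost in 12 of 26 alternatives, among them those without any 1 of the control tunicamycin arrays or without null tunicamycin replicate 1 or 2.

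Of 12 acyl-CoA synthetases, which make the substrate of the thioesterases, 1 rose and 3 fell in control livers, and 1 rose and 4 fell in null livers, with medians of -0.28 and -0.19. Acsm3, a medium-chain enzyme, fell by 2.16 ± 0.21 and 1.67 ± 0.21 (limma adjusted p = 1.98e-05 and 0.000282). Acsl4, which prefers arachidonic acid, rose by 1.43 ± 0.15 and 1.48 ± 0.15 (limma adjusted p = 3.75e-05 and 6.58e-05). Acss2, which makes acetyl-CoA from acetate, fell by 1.41 ± 0.16 and 0.88 ± 0.16 (limma adjusted p = 5.75e-05 and 0.00268).

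Of 11 genes of the carnitine shuttle and of acyl-CoA transport, 1 rose and 5 fell in control livers and 0 rose and 3 fell in null livers, with medians of -0.42 and -0.22. Abcd2, a peroxisomal transporter of acyl-CoA, fell by 3.02 ± 0.35 and 1.87 ± 0.35 (limma adjusted p = 6.62e-05 and 0.00332), and Cpt2, the inner mitochondrial carnitine palmitoyltransferase, fell by 0.76 ± 0.16 and 0.71 ± 0.16 (limma adjusted p = 0.00421 and 0.01), calls lost with centred medians and with the values as deposited. Slc22a5, the carnitine importer, fell in control livers by 1.22 ± 0.24 (limma adjusted p = 0.00324), a call lost with the actin 5' to 3' ratio in the fit. It was higher in null than in control livers with tunicamycin (1.18 ± 0.24, limma adjusted p = 0.0177). That genotype call was lost in 4 of 26 alternatives, among them those without control tunicamycin replicate 1 or 2.

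Of 28 measured genes that stand for PPARα and its other liver targets, 5 rose and 8 fell in control livers and 4 rose and 1 fell in null livers, with medians of -0.22 and -0.15. Fgf21, the fasting hormone, rose by 4.98 ± 0.41 and 4.61 ± 0.41 (limma adjusted p = 6.08e-06 and 2.52e-05). Pdk4, which holds back pyruvate oxidation, rose by 1.67 ± 0.32 and 2.48 ± 0.32 (limma adjusted p = 0.0024 and 0.000328). Fabp2, a fatty acid binding protein, fell by 1.49 ± 0.24 and 2.11 ± 0.24 (limma adjusted p = 0.000784 and 0.000147). No gene of this list was called between the genotypes, and 1 was called with tunicamycin when the kidney-bearing array was left out.

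Of 10 genes of coenzyme A synthesis and breakdown, 1 rose and 5 fell in control livers, and 1 rose and 3 fell in null livers, with medians of -0.45 and -0.38. Pank3, a pantothenate kinase at the entry to coenzyme A synthesis, fell by 1.14 ± 0.19 and 0.87 ± 0.19 (limma adjusted p = 0.000996 and 0.00877), and Nudt7, which breaks coenzyme A down in peroxisomes, rose by 1.00 ± 0.21 and 0.97 ± 0.21 (limma adjusted p = 0.00425 and 0.00807). The Nudt7 call in control livers was lost with the actin 5' to 3' ratio in the fit. Of the 3 genes listed as the Acot13 partner Pctp and its relatives, Stard7 fell in control livers (-0.39 ± 0.12, limma adjusted p = 0.0366), a call lost in 11 of 26 alternatives, among them those without any 1 of the control tunicamycin arrays, and none was called in null livers. In the vehicle, averaged and interaction comparisons no gene of the 6 lists was called. Without the kidney-bearing array 1 other thioesterase, 1 carnitine shuttle gene and 1 PPARα gene were called with treatments averaged, and 1 other thioesterase in the interaction.

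The genes most like Acot3 over the 12 arrays were found by the root mean square difference of log2 values after each gene was centred on its own mean. The nearest were Nxpe2 at 0.63, Lipg, the endothelial lipase, at 0.80, Gm4951 at 0.82, Srebf1, a transcription factor of lipid synthesis, at 0.86, and 4931408D14Rik at 0.89. Nxpe2 read 448 to 824 in control livers with vehicle and 19.6 to 37.3 with tunicamycin, and in null livers 643 to 759 and 16.6 to 47.0. Among the members, Acot4 came 140th of 14567 genes in likeness to Acot3, Acot13 came 414th and Acot1 came 657th, while Acot2 came 14479th.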

How the data were processed

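Liver RNA from 12 mice was hybridised to Affymetrix arrays, 3 per group, after Trizol extraction and biotin labelling, per the labels' protocols. Each deposited value is the intensity of 1 probe set on a linear scale. Of the summary method, scaling and filters the sources used here say nothing. The log2 of intensity + 16 was quantile normalized. Of 45101 probe sets, 64 controls were left out, and the platform's annotation gave 1 symbol for 34945, several for 932 (2 of them with a member) and none for 9160. The dimmest 30% were dropped, and the brightest remaining probe set stood for its gene.

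Group means were fitted with limma 3.58.1 (lmFit, eBayes) in R 4.3.3 over all 12 arrays, with 8 residual degrees of freedom, in 6 contrasts, and p values were adjusted by Benjamini-Hochberg over 14568 genes. The members and the gene lists were chosen with earlier results of these data known. Named were all members, Ern1, the 5 genes most like Acot3, up to 3 genes per list with small p, and marker genes; Keg1 and Cyp2c39, chosen after their values were seen, fall outside that rule. The fit was tested on simulated data. Same-numbered arrays of different groups were checked for pairing: the correlations of their deviations were -0.41 to 0.49, over 0.1 in 5 of 18 pairs. Those of differently numbered arrays were -0.45 to 0.37, over 0.1 in 7 of 36 pairs. This check does not settle the matter. No pairing was used because the labels do not say that a number links groups. Alternatives covered pseudocounts of 1 and 64, filters, scalings, probe set rules, fit options, single arrays left out and 5' to 3' ratios. Plots used matplotlib 3.10.9 (Python 3.11.15).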

Additional observations from a re-analysis of the deposited data

Results flagged for a closer look

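For Acot7, every tunicamycin array, once quantile normalized, lay on the opposite side of its genotype's vehicle mean in null and in control livers, above it in null and below it in control. The difference between the 2 responses was 0.25, and the interaction of the limma fit had an adjusted p of 0.89, so it did not pass the test. The signs were not opposite under the other scalings: the change in control livers was -0.08 there, and it was 0.12 with centred medians, 0.14 with the values as deposited and 0.12 with the actin ratio in the fit, against 0.17, 0.33, 0.40 and 0.29 in null livers.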

How the results depend on the processing

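Of 1380 values of the 9 members under the alternatives, 1313 were counted as the same, 27 were no longer called and 11 became called. A further 26 changed sign in a genotype comparison, and 3 uncalled tunicamycin values changed sign and moved by more than the spread. Values that kept their sign were not checked against the spread. The values counted as the same kept their side of the threshold. They include uncalled tunicamycin values whose sign turned within the spread, and the sign differed in 39 of the 1380 values. The number of members called between the genotypes with tunicamycin, 1 in the report, was 0 with a pseudocount of 1, without the filter, with centred medians, as deposited, with the mean of probe sets, with the 2 groups alone and with every probe set on its own, 2 with trend and robust options and 2 with array weights, and 0 to 1 when single arrays were left out. With both treatments averaged it was 0 in the report, 2 with array weights and 0 to 1 when single arrays were left out. The sign changes in the genotype comparisons were all of small, uncalled differences. With vehicle they were Acot4 with the mean of probe sets (-0.14) and the Gapdh ratio (-0.079), and, with the actin ratio, Acot3 (0.0043), Acot7 (0.031) and Acot13 (0.032). With single arrays left out the vehicle differences ran from -0.071 to 0.40 for Acot1, -0.29 to 0.0069 for Acot3, -0.19 to 0.075 for Acot7, -0.057 to 0.36 for Acot8 and -0.10 to 0.022 for Acot13. With tunicamycin Acot9 was -0.0044 with array weights and -0.14 to 0.75 with single arrays left out. Averaged over treatments, Acot7 was -0.0093 with centred medians, Acot9 was -0.076 with array weights, and Acot12 was 0.11 with the mean of probe sets, 0.020 with array weights and 0.11 with the Gapdh ratio. With single arrays left out these ran from -0.0062 to 0.13 for Acot7, -0.20 to 0.25 for Acot9 and -0.14 to 0.077 for Acot12, and the interaction of Acot8 ran from -0.13 to 0.29. Of the listed genes, Angptl4 in control livers with tunicamycin went from 1.34 to -0.029 without probe sets of the _x_at and _s_at kinds, where another probe set stands for it. The causes were not tested. That the same numbers pair arrays is not given. With the replicate block 1 member was called between the genotypes with tunicamycin (Acot2, 0.92). In the other genotype comparisons and the interaction 0 were called, as without the block. Acot3 has a single probe set of the _s_at kind, so it gave no value when such probe sets were left out. The signal of Acot5 over background was too low for a test.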
